A study of Mus musculus with 12 samples.

Results

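Metallothioneins and zinc transporters were followed in the frontal cortex of Grin1 knockdown, Cre rescue and wild-type mice. Of the 23076 gene symbols in the authors' deposited tables, 8 were taken by name: the metallothioneins Mt1, Mt2 and Mt3, the transcription factor gene Mtf1, the exporters Slc30a1 and Slc30a3, and the importers Slc39a10 and Slc39a14. All 8 were found, each as 1 assembled gene model with no other symbol in each of the 3 tables. They were chosen by their group FPKM and by the authors' calls in all 3 comparisons, so their values and the authors' calls on them are given as a description and support nothing further.

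The groups were rescue mice (labelled GluN1Cre), knockdown mice (labelled GluN1) and wild-type controls (labelled WT), with 4 animals in each group and 12 in all. Every animal was a male F1 hybrid of C57Bl/6 and 129/SvlmJ, 14 weeks old. All groups, wild type included, had received tamoxifen from 10 weeks of age over 2 weeks, as a 6 mg gavage and about 14 mg in chow. The Grin1 allele, the promoter that drives Cre and the cells that express it are not given in the sources used here, and no group is labelled as Cre without the Grin1 allele. Grin1, which encodes the subunit that every NMDA receptor needs, lay at 56.7 FPKM in knockdown against 138 FPKM in wild type, and at 86.7 FPKM in rescue against 65.7 FPKM in knockdown. Rescue stood at 78.0 FPKM against 138 FPKM in wild type. The values are FPKM, which scales fragments to the transcript's length and to the library's total. The authors' Cuffdiff run gives 1 estimate per group, so no spread between animals and no read depth can be given for any value below. In bulk tissue, fewer cells of a type and less RNA per cell cannot be told apart.

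Metallothioneins are small cysteine-rich proteins that bind zinc and copper and buffer the free ions in the cytosol. When zinc rises in a cell, the zinc-finger factor MTF1, encoded by Mtf1, binds metal response elements and switches on Mt1, Mt2 and Slc30a1. Mt1 and Mt2 are also induced by glucocorticoids, oxidative stress and acute-phase signals, and in the brain they are made largely by astrocytes, while Mt3 is the brain-enriched form. SLC30 proteins (ZnT) carry zinc out of the cytosol and SLC39 proteins (ZIP) carry it in. ZnT3, encoded by Slc30a3, loads zinc into synaptic vesicles of glutamatergic neurons, and the zinc released there inhibits NMDA receptors.

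Mt3, Mt2 and Mt1 lie in this order on the plus strand of chromosome 8 (GRCm38), within 27721 bases. The authors' models run from 94152607 to 94154148 for Mt3, from 94172618 to 94173567 for Mt2 and from 94179089 to 94180327 for Mt1, counted from 1. GENCODE M21 lists them as the protein-coding genes ENSMUSG00000031760, ENSMUSG00000031762 and ENSMUSG00000031765. The gap between the models of Mt2 and Mt1 is 5521 bases and that between Mt3 and Mt2 is 18469 bases. The coding sequences are shown because the share of cysteine codons is what makes these proteins metal binders, and because near-identical copies can share reads. Each is read from the GENCODE M21 transcript without its stop codon, and capitals mark the codons TGC and TGT, which encode cysteine.
Mt1: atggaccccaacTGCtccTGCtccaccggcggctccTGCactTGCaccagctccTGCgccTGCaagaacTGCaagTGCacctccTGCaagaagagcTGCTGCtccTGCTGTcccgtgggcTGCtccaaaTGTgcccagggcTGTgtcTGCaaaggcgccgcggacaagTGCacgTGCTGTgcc
Mt2: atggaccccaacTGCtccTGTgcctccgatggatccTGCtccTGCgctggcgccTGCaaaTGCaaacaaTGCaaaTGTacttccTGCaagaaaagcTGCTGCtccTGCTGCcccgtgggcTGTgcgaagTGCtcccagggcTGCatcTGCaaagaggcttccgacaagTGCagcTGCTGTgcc
Mt3: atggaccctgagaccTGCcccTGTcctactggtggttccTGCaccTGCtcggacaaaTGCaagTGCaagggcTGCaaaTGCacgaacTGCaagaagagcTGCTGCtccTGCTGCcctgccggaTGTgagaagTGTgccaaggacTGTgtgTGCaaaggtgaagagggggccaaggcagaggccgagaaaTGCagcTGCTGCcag
Each holds 20 cysteine codons, out of 61 codons in Mt1, 61 in Mt2 and 68 in Mt3. The coding sequences of Mt1 and Mt2 are identical at 79.2% of aligned positions, those of Mt1 and Mt3 at 65.7% and those of Mt2 and Mt3 at 67.2%. The longest identical run between the transcripts is 20 bases for Mt1 and Mt2, 27 bases for Mt1 and Mt3 and 20 bases for Mt2 and Mt3.

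The promoters of Mt1, Mt2, Mt3 and Slc30a1 are shown because these are the genes of the set that MTF1 is known to act on, with Mt3 beside them for contrast. Sequences are the 250 bases before the RefSeq start (GRCm38.p6, plus strand) at chr8:94178839-94179088 for Mt1, chr8:94172368-94172617 for Mt2, chr8:94152357-94152606 for Mt3 and chr1:191906531-191906780 for Slc30a1. The authors' model of Slc30a1 starts at 191894072, which is 12709 bases before the RefSeq start used here. Capitals mark matches to the core of the metal response element, TGCACNC or TGCGCNC, on either strand.
Mt1: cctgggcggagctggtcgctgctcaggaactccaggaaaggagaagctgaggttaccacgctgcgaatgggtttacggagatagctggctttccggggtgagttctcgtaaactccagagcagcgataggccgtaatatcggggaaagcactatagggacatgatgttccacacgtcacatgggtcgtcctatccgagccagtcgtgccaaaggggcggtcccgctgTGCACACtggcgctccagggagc
Mt2: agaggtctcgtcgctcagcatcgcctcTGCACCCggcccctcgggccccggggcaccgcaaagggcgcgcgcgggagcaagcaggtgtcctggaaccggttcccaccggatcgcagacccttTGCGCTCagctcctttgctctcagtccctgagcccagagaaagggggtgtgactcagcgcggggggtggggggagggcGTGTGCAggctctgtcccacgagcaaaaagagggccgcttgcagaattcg
Mt3: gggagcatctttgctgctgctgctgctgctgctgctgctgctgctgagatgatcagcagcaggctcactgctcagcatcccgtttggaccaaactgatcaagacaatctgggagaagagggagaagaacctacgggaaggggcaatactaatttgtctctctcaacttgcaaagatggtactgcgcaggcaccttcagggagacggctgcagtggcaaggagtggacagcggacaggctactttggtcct
Slc30a1: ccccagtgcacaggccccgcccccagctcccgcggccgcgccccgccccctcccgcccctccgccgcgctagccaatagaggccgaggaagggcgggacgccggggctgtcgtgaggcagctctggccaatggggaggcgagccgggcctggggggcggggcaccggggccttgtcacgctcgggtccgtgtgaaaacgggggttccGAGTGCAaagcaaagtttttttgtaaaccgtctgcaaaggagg
Further matches lie just after the RefSeq starts. GENCODE M21 starts Mt2 at 94172664, so the further Mt2 match lies before that start. The 30 bases around these matches are at chr8:94179089-94179118 for Mt1, chr8:94172618-94172647 for Mt2, chr8:94152611-94152640 for Mt3 and chr1:191906788-191906817 for Slc30a1.
Mt1: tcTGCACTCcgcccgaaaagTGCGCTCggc
Mt2: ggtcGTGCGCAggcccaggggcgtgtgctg
Mt3: tcagtggagactcgggacagcagTGCACAC
Slc30a1: aagacggcggacgcctccgggccGAGCGCA
Over the window from 250 bases before to 50 bases after the start, Mt2 held 4 matches, Mt1 held 3, Slc30a1 held 2 and Mt3 held 1. The Mt1 coding sequence begins at 94179311, past the end of its window, and bases beyond the windows were not searched. Among 32851 RefSeq promoter windows of the same length, 25.7% held at least 1 match, 7.11% at least 2, 1.97% at least 3 and 0.517% at least 4. Slc30a3 has 2 annotated starts. The start at which the authors' model ends in the table of rescue against wild type held no match, and the other held 1, while the Mtf1 window and both Slc39a10 windows held none. Slc39a14 had no entry in the promoter table. Of the other genes of the zinc families, 10 of 19 with a promoter entry held at least 1 match, with at most 3 in a window. An antioxidant response element match (TGACNNNGC, either strand) was found in the windows of Mt2 and Slc30a1, and in 12.4% of all windows, and it overlapped no metal response element match. The full palindromic glucocorticoid response element was found in no window of the set and in 3 of the 32851 windows. A match is a description of these letters and does not show binding.

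**Figure D1:**
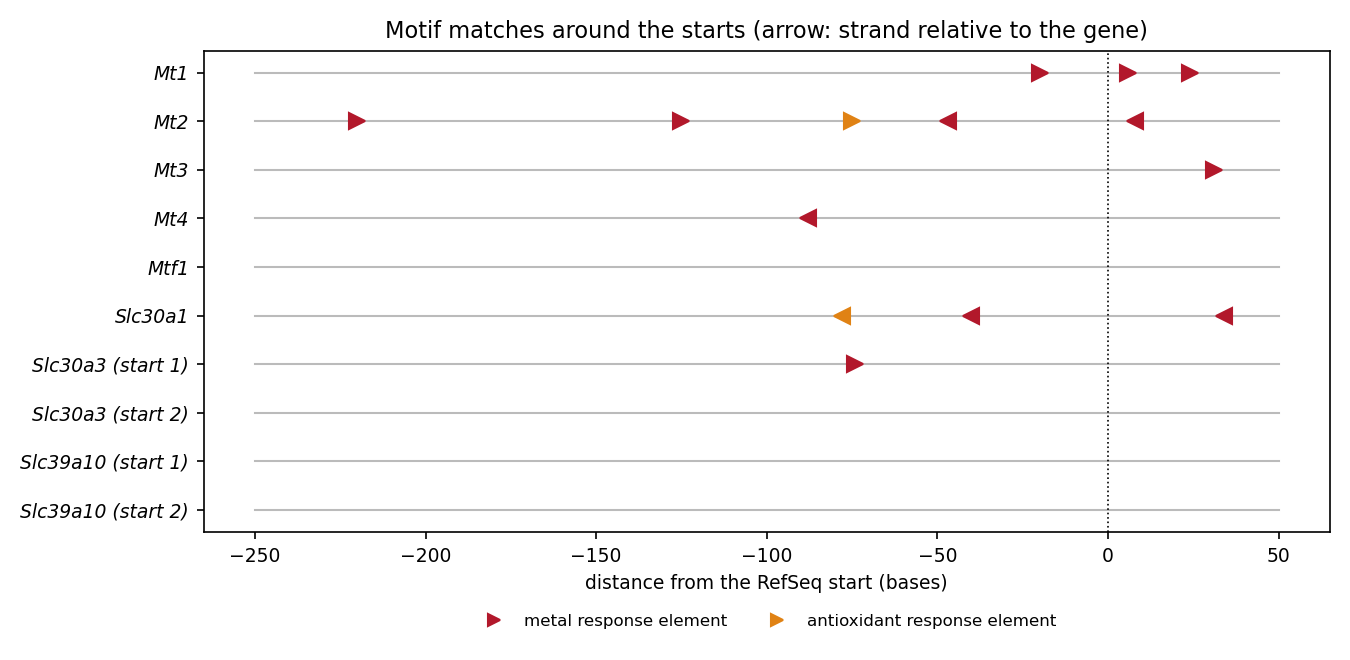
Positions of metal response element matches (red) and antioxidant response element matches (orange) along the x axis, the distance in bases from the RefSeq start, with 1 line per annotated start of each gene and arrows for the strand relative to the gene. The Mt2 line carries 4 red arrows and the Mt1 line 3, and the Mtf1 and Slc39a10 lines carry none.

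The metallothioneins were among the most abundant transcripts of the cortex. By mean FPKM over knockdown and wild type, Mt1 ranked 64, Mt3 ranked 91 and Mt2 ranked 136 of 18417 tested models. Slc30a3 and Slc39a10 ranked 1085 and 1171, Slc30a1 ranked 6747, Slc39a14 ranked 8124 and Mtf1 ranked 9748. Each group appears in 2 tables that were assembled and normalised separately, which gives a pair of estimates of the same libraries. Over the 24 pairs of the 8 genes these differed by 0.166% to 4.51%, with a median of 0.625%. Over 10859 single-symbol models whose mean FPKM was 1 or more, the median difference was 1.3% in rescue, 0.488% in knockdown and 1.13% in wild type.

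Mt2, a zinc-binding protein gene, was the member with the largest log2 fold in both comparisons that include the knockdown, while between rescue and wild type that of Slc30a3 was larger. It stood at 242 and 240.2 FPKM in rescue (in the tables against knockdown and against wild type), at 358 FPKM in knockdown in both of its tables, and at 259 and 259.6 FPKM in wild type. Mt2 was thus highest in the knockdown, with rescue slightly below wild type. In the authors' deposited table it rose in knockdown against wild type with a log2 fold of 0.47 (38.0% higher, q = 0.00456). It fell in rescue against knockdown by 0.57 on the log2 scale, to 67.5% of the knockdown level (q = 0.0118 in the authors' deposited table). Between rescue and wild type the log2 fold was -0.11, with p = 0.191 in the authors' deposited table.

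Mt1, its close paralog in sequence and inducers, followed the same order of groups. It stood at 379.7 and 376 FPKM in rescue, at 494 and 495 FPKM in knockdown and at 408 and 409 FPKM in wild type. The pair of estimates of each group comes from the same libraries and does not measure the spread between animals. In the authors' deposited table Mt1 rose in knockdown against wild type with a log2 fold of 0.28 (21.0% higher, q = 0.022). It fell in rescue against knockdown by 0.38 on the log2 scale, to 76.7% of the knockdown level (q = 0.0118 in the authors' deposited table). Between rescue and wild type the log2 fold was -0.12 (p = 0.136 in the authors' deposited table).

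Mt3, the brain-enriched form, had the same order of levels with smaller differences and was not called. It stood at 346 and 343 FPKM in rescue, at 389 and 391 FPKM in knockdown and at 358 and 361 FPKM in wild type. Its log2 folds were 0.12 in knockdown against wild type, -0.17 in rescue against knockdown and -0.07 in rescue against wild type. In the authors' deposited tables the p-values were 0.142, 0.0258 and 0.382 in that order, and the q of rescue against knockdown was 0.904. In all 3 metallothioneins the rescue level lay below the wild-type level and the knockdown level above it, and none was called between rescue and wild type.

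The summed FPKM of the 3 metallothioneins was 1240.2 in knockdown against 1025 in wild type, 968 in rescue against 1244 in knockdown, and 960.0 in rescue against 1029 in wild type. Mt2 made up 28.8% of the sum in knockdown against 25.3% in wild type, and 25.0% in rescue against 28.8% in knockdown. Mt1 made up 39.8% of the sum in both knockdown and wild type, and 39.2% in rescue against 39.8% in knockdown. The ratio of Mt2 to Mt1 was 0.724 in knockdown against 0.635 in wild type, and 0.636 in rescue against 0.723 in knockdown. Of the 628 models tested between knockdown and wild type whose mean FPKM was 100 or more, 90% of log2 folds lay between -0.19 and 0.16, and 18 models were called. Of the 611 such models tested between rescue and knockdown, 7 were called, all of them lower in rescue, and 90% of log2 folds lay between -0.16 and 0.10.

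**Figure D2:**
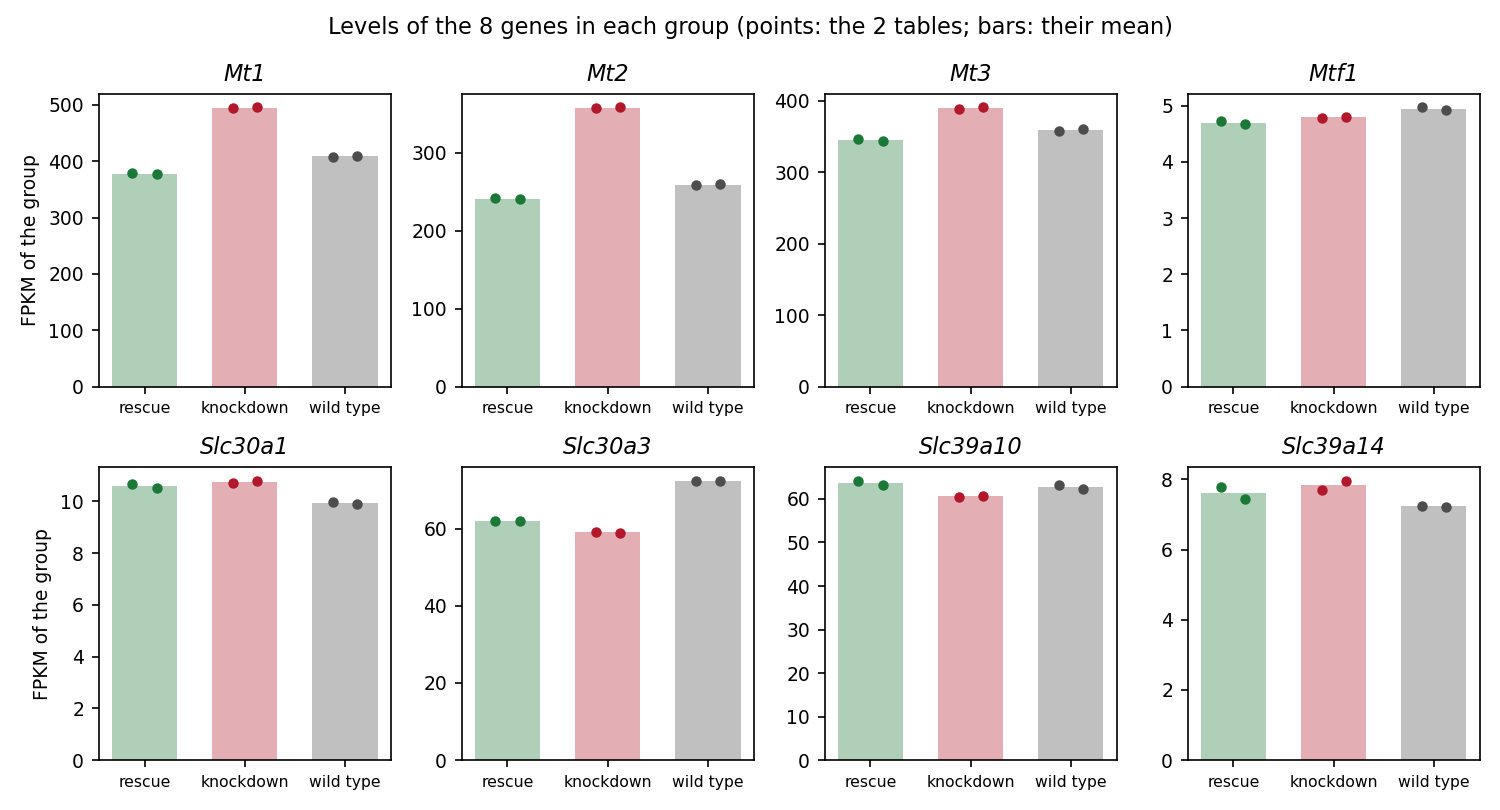
FPKM of each of the 8 genes (y axis, from 0, scaled per gene) in rescue, knockdown and wild type. Points are the 2 tables that hold the group and bars their mean. Mt1, Mt2 and Mt3 stand highest in knockdown, Mt2 at 358 FPKM, while Slc30a3 stands highest in wild type at 72.2 and 72.3 FPKM.

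Genes next to the metallothioneins were read to see whether the difference extended along the chromosome. Within 100 kb of the span of Mt1 to Mt3 the tables hold models of Ogfod1, Nudt21, Bbs2, Mt4 and Nup93. Mt4, a metallothionein of stratified epithelia, was listed at 0 FPKM in all groups. Bbs2, a gene of the ciliary BBSome complex, stood at 8.79 FPKM in knockdown against 8.52 FPKM in wild type. The main model of Nup93, a nuclear pore gene, stood at 8.40 FPKM in knockdown against 8.48 FPKM in wild type. Log2 folds of Ogfod1, Nudt21, Bbs2 and the main Nup93 model lay between -0.03 and 0.04 in knockdown against wild type. Between rescue and knockdown they lay between -0.06 and 0.09. None of these neighbours was called by the authors' Cuffdiff test in any table, and none had p under 0.05.

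Mtf1, the metal-sensing factor gene, showed levels within a narrow range. It stood at 4.73 and 4.67 FPKM in rescue, at 4.79 and 4.80 FPKM in knockdown and at 4.97 and 4.93 FPKM in wild type. Its log2 folds were -0.05 in knockdown against wild type, -0.02 in rescue against knockdown and -0.08 in rescue against wild type, and none was called. Slc30a1, the plasma membrane exporter ZnT1 and a textbook MTF1 target, stood at 10.7 and 10.5 FPKM in rescue, at 10.7 and 10.8 FPKM in knockdown and at 9.99 and 9.91 FPKM in wild type. Its log2 folds were 0.10 in knockdown against wild type, -0.01 in rescue against knockdown and 0.08 in rescue against wild type, with p = 0.269, 0.879 and 0.395 in the authors' deposited tables. Slc30a1 lay above wild type in both other groups and was called in no comparison. The part of MTF1 in the levels of Slc30a1, Mt1 and Mt2 was not tested.

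Slc30a3, the vesicular exporter ZnT3, was the member that fell in the knockdown. The authors' model lies on chromosome 5 from 31086106 to 31094515 in both tables that hold the knockdown, within the protein-coding gene ENSMUSG00000029151 on the minus strand. It stood at 62.1 and 61.9 FPKM in rescue, at 59.1 and 59.0 FPKM in knockdown and at 72.2 and 72.3 FPKM in wild type. Both other groups thus lay below wild type, and rescue lay close to knockdown. The log2 fold in knockdown against wild type was -0.29, which put knockdown at 81.9% of the wild-type level (q = 0.0449 in the authors' deposited table). Between rescue and knockdown the log2 fold was 0.07 (p = 0.373 in the authors' deposited table). In rescue against wild type it was -0.22, with p = 0.009 and q = 0.516 in the authors' deposited table, so it was not called there.

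Slc39a10, the plasma membrane importer ZIP10, was the most abundant importer of its family. It stood at 64.1 and 63.1 FPKM in rescue, at 60.5 and 60.7 FPKM in knockdown and at 63.3 and 62.3 FPKM in wild type. The estimates of rescue and wild type overlap between tables. Log2 folds were -0.06 in knockdown against wild type, 0.08 in rescue against knockdown and 0.02 in rescue against wild type. The authors' model of this gene ends at 46925784 on chromosome 1 in the tables that hold the knockdown and at 46854319 in the table of rescue against wild type. Slc39a14, the importer ZIP14, which also carries manganese and iron, stood at 7.78 and 7.43 FPKM in rescue, at 7.70 and 7.95 FPKM in knockdown and at 7.25 and 7.21 FPKM in wild type. Its estimates for rescue and knockdown overlap between tables. Log2 folds were 0.09, -0.03 and 0.04 in knockdown against wild type, rescue against knockdown and rescue against wild type, and neither importer was called in any table.

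In counts, 2 of the 8 members rose, 1 fell and 5 were not called in knockdown against wild type, in a table where 2.52% of tested models were called. Those called higher were 1.66% of tested models and those called lower 0.858%. Without adjustment, 3 of 8 members and 7.91% of tested models had p under 0.05. In rescue against knockdown 2 of 8 fell, 0 rose and 6 were not called, against 0.689% of tested models called, 0.13% called higher and 0.559% called lower. The same 2 and Mt3 had p under 0.05 without adjustment, as did 4.19% of tested models. In rescue against wild type 0 of 8 were called by Cuffdiff, where 0.841% of tested models were called, 0.364% higher and 0.478% lower. Of the members 1 of 8 (Slc30a3) had p under 0.05 without adjustment, where 4.32% of tested models did. The median log2 fold of the members was 0.09, -0.03 and -0.07 in the same order of comparisons, and that of all tested models was -0.00, -0.01 and -0.01. Knockdown enters 2 of the comparisons, as do rescue and wild type, so the comparisons share their groups' chance values.

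**Figure D3:**
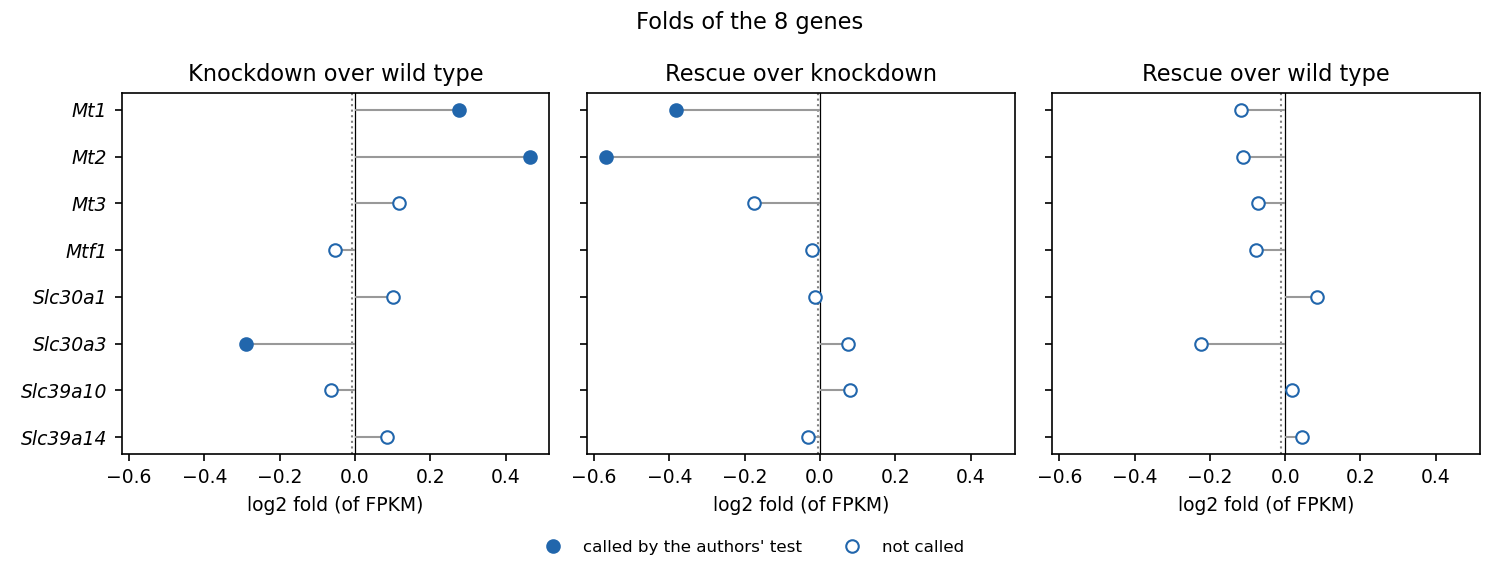
Log2 folds of the 8 genes (x axis) in each comparison, with filled points for genes called by the authors' test, open points for those not called, and a dotted line at the median of tested models whose mean FPKM was 1 or more. Mt2 stands at 0.47 in the first panel and at -0.57 in the second, and Slc30a3 at -0.29 in the first and -0.22 in the third.

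The wider families were taken by symbol: Mt1 to Mt4, Slc30a1 to Slc30a10, Slc39a1 to Slc39a14, Mtf1 and the vesicular zinc transporter gene Tmem163, 30 genes in all. Of 27 tested models in knockdown against wild type, 2 rose, 1 fell and 24 were not called, where 2.52% of all tested models were called. Those that changed were Mt1, Mt2 and Slc30a3. Without the 8 members, 0 of 19 tested models were called in that comparison by Cuffdiff. None of these had p under 0.05, where 7.91% of all tested models did. In rescue against wild type 0 of 18 were called, where 0.841% of all tested models were. Of these 18, 0 had p under 0.05, where 4.32% of all did. In rescue against knockdown 0 of 19 were called, where 0.689% of all tested models were. Of these 19, 1, Slc39a12, had p under 0.05, where 4.19% of all did. At such shares, few or no calls would be expected in lists of this size. The median log2 fold of these other models was 0.02, -0.00 and 0.02 in knockdown against wild type, rescue against knockdown and rescue against wild type.

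Among the exporters, levels in knockdown against wild type were 51.5 against 51.7 FPKM for Slc30a9, 16.6 against 17.3 FPKM for Slc30a4 and 15.7 against 15.6 FPKM for Slc30a5. The last works in the early secretory pathway with Slc30a6, which stood at 4.53 against 4.67 FPKM. Slc30a10, a manganese exporter gene, stood at 3.90 FPKM in knockdown against 3.89 FPKM in wild type. Slc30a3 was therefore the most abundant exporter transcript in both groups, at 59.1 FPKM in knockdown against 72.2 FPKM in wild type, and the one exporter called.

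Among the importers, Slc39a7, which releases zinc from the endoplasmic reticulum, stood at 35.8 FPKM in knockdown against 34.6 FPKM in wild type, and Slc39a3 at 21.4 against 21.5 FPKM. Slc39a12, the brain-enriched importer ZIP12, stood at 18.4 FPKM in knockdown against 16.5 FPKM in wild type (log2 fold 0.16) and at 16.2 FPKM in rescue against 18.4 FPKM in knockdown (log2 fold -0.19, p = 0.0255 and q = 0.904 in the authors' deposited table). Apart from Tmem163, the 15 other family models whose mean FPKM was 1 or more had log2 folds between -0.06 and 0.16 in knockdown against wild type. Between rescue and knockdown these lay between -0.19 and 0.09, and in rescue against wild type between -0.04 and 0.08. In the first and second of these comparisons Slc39a12 was the 1 of 15 outside 0.1 either way. The folds at the ends of these ranges otherwise belonged to exporters, with Slc30a4 at -0.06 in knockdown against wild type and at 0.09 in rescue against knockdown. Between rescue and wild type they belonged to Slc30a9 at -0.04 and Slc30a5 at 0.08.

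Tmem163, whose product moves zinc into vesicles, had the largest fold among the tested models of the other family genes in both comparisons that include the knockdown. It stood at 8.40 FPKM in knockdown against 5.70 FPKM in wild type (log2 fold 0.56, p = 0.0753 in the authors' deposited table). Rescue and knockdown stood at 6.25 against 8.60 FPKM (log2 fold -0.46, p = 0.126 in the authors' deposited table), and Tmem163 was called in neither. Both of these folds exceed that of Mt1 in size and lie past neither p threshold.

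**Figure D4:**
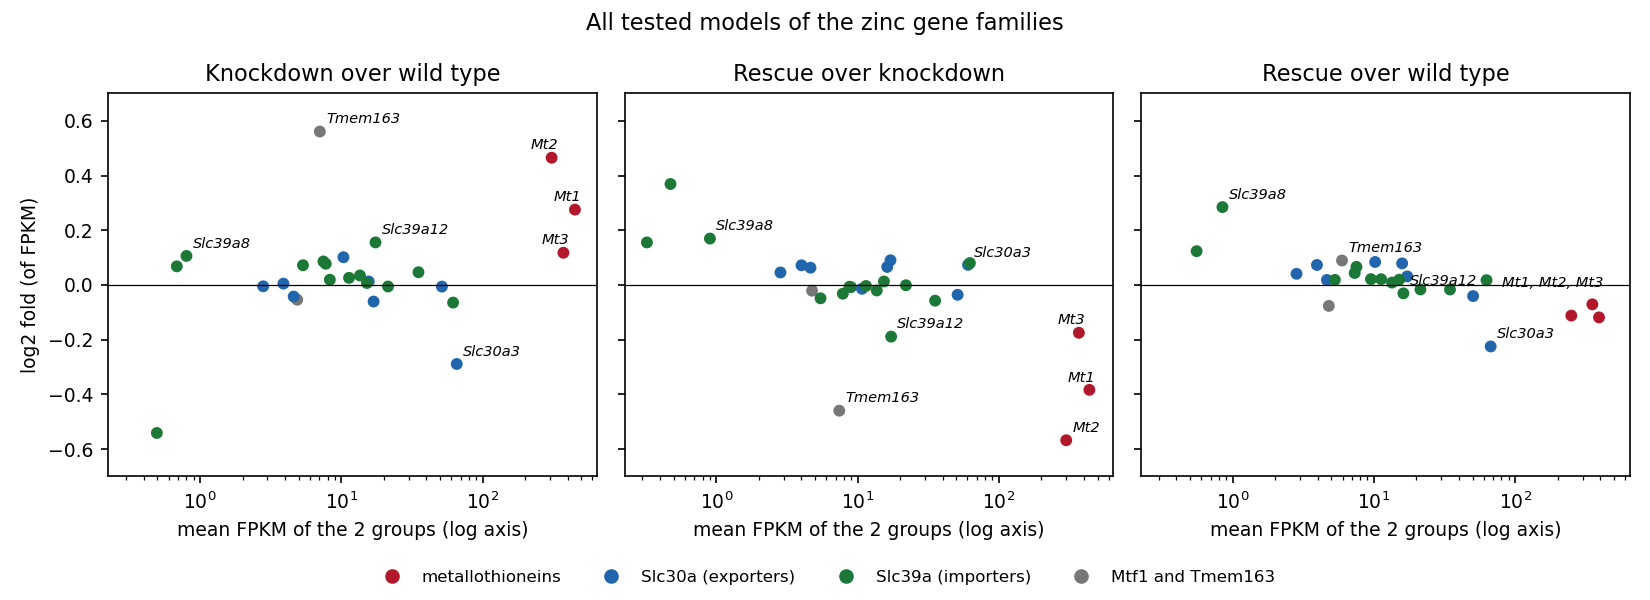
Log2 fold (y axis) against the mean FPKM of the pair of groups (x axis, log scale) for each tested model of the metallothionein, Slc30a and Slc39a families, Mtf1 and Tmem163. Most importers and exporters lie near 0 in each panel, Mt1 and Mt2 stand above 0 at the right of the first panel and below it in the second, and the model at -0.54 in the first panel is a low model of Slc39a11 at 0.403 FPKM in knockdown against 0.587 FPKM in wild type.

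Genes with known ties to metallothionein induction were read beside Mt1 and Mt2. Of 18 glucocorticoid-induced models, 1 rose (the cell cycle inhibitor gene Cdkn1a), 1 fell (the clock gene Per1) and 16 were not called in knockdown against wild type, where 2.52% of all tested models were called. The list median was 0.07, and 8 of 18 had p under 0.05. In rescue against knockdown 5 of 18 fell and 0 rose, where 0.559% of all tested models were called lower. The median was -0.16, and 6 of 18 had p under 0.05. The 5 that fell were Fkbp5, Tsc22d3, Cdkn1a, Hif3a and Plin4, with log2 folds of -0.53, -0.46, -0.44, -0.56 and -0.96 in that order. Fkbp5 encodes a co-chaperone of the glucocorticoid receptor. Between rescue and wild type 2 of 18, Klf9 and Per1, fell, where 0.478% of all tested models were called lower. The median was -0.21, and 7 of 18 had p under 0.05. Fkbp5 stood at 17.1 FPKM in knockdown against 14.4 FPKM in wild type and was not called there (q = 0.124 in the authors' deposited table).

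Of 11 oxidative stress models, 1 rose in knockdown against wild type, Srxn1, which encodes sulfiredoxin, at 43.1 FPKM in knockdown against 35.7 FPKM in wild type (log2 fold 0.27). The list median was 0.01. Between rescue and knockdown 0 of 10 were called by Cuffdiff, with 2 under p of 0.05 and a median of -0.01. Between rescue and wild type 0 of 11 were called by Cuffdiff, with 0 under p of 0.05. Of the STAT3 and acute-phase models, 0 of 10, 0 of 10 and 0 of 9 were called in the 3 comparisons by Cuffdiff, with 2, 0 and 0 under p of 0.05 and medians of 0.17, -0.17 and -0.02.

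Markers of astrocytes, vessels, meninges, choroid plexus and other cells were read in the same comparisons, and their part in the metallothionein levels was not tested. For all lists, the background in knockdown against wild type was 1.66% of tested models called higher and 0.858% called lower. These shares were 0.13% and 0.559% in rescue against knockdown, and 0.364% and 0.478% in rescue against wild type. Without adjustment, 7.91%, 4.19% and 4.32% of tested models had p under 0.05 in that order. Of 11 astrocyte marker models, Gfap and Aqp4 rose in knockdown against wild type, 9 were not called and none of the 11 folds was negative. The median was 0.15, with a summed level of 1136 FPKM in knockdown against 1039.8 FPKM in wild type. In rescue against knockdown Gfap and Gjb6 fell, all 12 folds were negative, with a median of -0.17, and the sum was 988 FPKM in rescue against 1100.3 FPKM in knockdown. Between rescue and wild type 1 of 12, Gfap, rose, the median was -0.05 and the sum was 1029 FPKM in rescue against 1052 FPKM in wild type. In both comparisons that include the rescue, the Aldoc model was merged with Pigs. This merged model stood at 280 FPKM in rescue in the comparison with knockdown and at 333 FPKM in rescue in that with wild type. The astrocyte sums therefore do not cover the same models in each comparison. The glutamate transporter gene Slc1a2, abundant in astrocytes, stood at 340.0 FPKM in knockdown against 334 FPKM in wild type.

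Of 9 meningeal fibroblast models 4 rose in knockdown against wild type, with a median of 0.37 and a sum of 73.5 FPKM in knockdown against 57.0 FPKM in wild type. None of the 9 was called by Cuffdiff in rescue against knockdown, with 3 under p of 0.05 and a median of -0.17, and the sum was 64.4 FPKM in rescue against 73.6 FPKM in knockdown. All 9 meningeal folds were positive between rescue and wild type, with a median of 0.15. Cuffdiff called 0 of these 9, and 3 had p under 0.05. Among 8 endothelial models 0 were called in knockdown against wild type, with 4 under p of 0.05 and a median of 0.23, and 1 of 8, Slc2a1, fell in rescue against knockdown, where the median was -0.08. Of the endothelial folds, 7 of 8 were positive between rescue and wild type, with a median of 0.16, and Cuffdiff called 0 of 8, with 2 under p of 0.05. Choroid plexus markers were near 0, with Ttr at 0.125 FPKM in knockdown against 0.0807 FPKM in wild type and a list sum of 3.59 FPKM in knockdown against 2.31 FPKM in wild type, and the channel gene Aqp1 was the 1 of 3 tested models that rose. Aqp1 fell in rescue against knockdown (log2 fold -0.53) and rose in rescue against wild type (log2 fold 0.85). The other 2 tested models were called in neither. No marker of these 4 lists was listed at 0 in both groups of a table.

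Olfactory bulb markers rose in 8 of 9 models in knockdown against wild type (median 1.96, sum 106 FPKM in knockdown against 37.9 FPKM in wild type) and fell in 8 of 9 in rescue against knockdown (median -0.82, sum 62.7 FPKM in rescue against 104.9 FPKM in knockdown). In rescue against wild type 7 of 8 rose (median 1.31). None of these markers was listed at 0 in both groups, and the part of bulb tissue in the metallothionein and Slc30a3 levels was not tested.

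Beside Slc30a3, markers of glutamatergic neurons were read. Slc17a7, the vesicular glutamate transporter found on ZnT3 vesicles, stood at 598 FPKM in knockdown against 626 FPKM in wild type. The cortical factor Tbr1 stood at 46.1 FPKM in knockdown against 53.3 FPKM in wild type. Of 7 excitatory neuron models 0 were called by Cuffdiff in knockdown against wild type and 2 had p under 0.05. All 7 folds were negative, with a median of -0.15 and a sum of 2313 FPKM in knockdown against 2555 FPKM in wild type. In rescue against wild type 0 of 8 were called, with 0 under p of 0.05, a median of -0.06 and a sum of 2404 FPKM in rescue against 2549 FPKM in wild type. In rescue against knockdown 0 of 8 were called, with 0 under p of 0.05 and a median of 0.08. The log2 folds of Slc30a3 were -0.29 in knockdown against wild type and -0.22 in rescue against wild type. Those of the markers Camk2a, Tbr1 and Slc17a7 were -0.22, -0.21 and -0.07 in the first and -0.14, -0.08 and -0.04 in the second. The part of excitatory neurons in the Slc30a3 level was not tested. In the list of glutamate loading and AP-3 sorting genes, which bring ZnT3 to synaptic vesicles, 0 of 7 models were called in knockdown against wild type, with 0 under p of 0.05 and a median of 0.02. Striatal medium spiny neuron markers fell in 5 of 10 models in knockdown against wild type (median -0.42, sum 167 FPKM in knockdown against 193 FPKM in wild type) and in 7 of 10 in rescue against wild type (median -0.53, sum 149 FPKM in rescue against 198 FPKM in wild type). In rescue against knockdown 1 of 9, Penk, fell. There 8 of the 9 striatal folds were negative and 1 was positive, with a median of -0.16, while the log2 fold of Slc30a3 was 0.07. No striatal marker was listed at 0 in both groups, and the part of these markers in the Slc30a3 level was not tested. Microglia, oligodendrocyte and blood models were read as well, with 0 of 6, 0 of 8 and 1 of 5 called in knockdown against wild type. The medians were 0.01, 0.02 and 0.19, and 0, 0 and 1 had p under 0.05. Blood models rose in 3 of 5 in rescue against knockdown (median 0.38, sum 165 FPKM in rescue against 115 FPKM in knockdown). They also rose in 3 of 5 in rescue against wild type (median 0.57, sum 163 FPKM in rescue against 99.7 FPKM in wild type). The genes called were Beta-s and the merged Hba-a1 and Hba-a2 models, whose near-identical copies share reads. Cuffdiff called 0 of 7 oligodendrocyte models between rescue and knockdown and 0 of 8 between rescue and wild type, with 1 under p of 0.05 in each. All 7 folds were negative between rescue and knockdown, and the medians were -0.09 in both comparisons. Of 6 microglia models 0 were called by Cuffdiff in either comparison, with 0 under p of 0.05 and medians of 0.02.

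**Figure D5:**
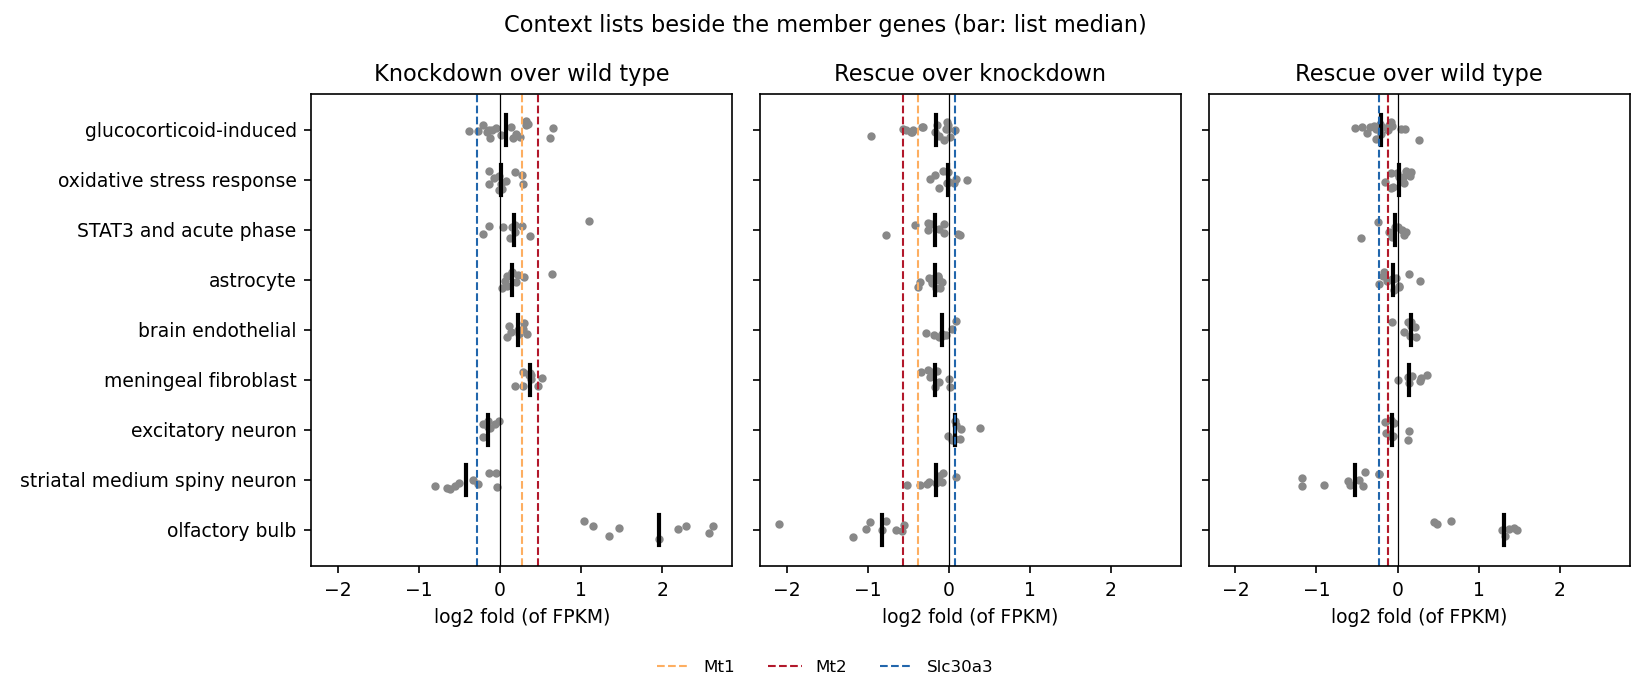
Log2 folds (x axis) of the tested models of each list (grey points, 1 per model, spread vertically for visibility), with the list median as a black bar and dashed lines at the folds of Mt1, Mt2 and Slc30a3. In the second panel the Mt2 line at -0.57 lies left of the medians of all lists drawn except the olfactory bulb list at -0.82.

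Genes with the most similar pattern were found among the 10859 single-symbol models tested in all tables whose mean FPKM was 1 or more in each, by the Euclidean distance between their 3 log2 folds and those of the gene. The comparisons share groups, so the distance rests on few independent values. The nearest to Mt2 were Aspg at a distance of 0.04, Xdh at 0.06, Kcne1l and Crip1 at 0.10 each and Ccl17 at 0.13. Xdh, the xanthine dehydrogenase gene, had log2 folds of 0.44 in knockdown against wild type, -0.52 in rescue against knockdown and -0.09 in rescue against wild type. The nearest to Mt1 were Plin3 at 0.02, Pmf1 and Atp10a at 0.04 each, and Kcng4 and Prima1 at 0.05 each. The nearest to Slc30a3 were Col25a1, Atp2b4, N4bp3, Vwc2 and Sla, at distances of 0.01 to 0.03. Atp2b4, a plasma membrane calcium pump gene, had log2 folds of -0.30, 0.07 and -0.22 in the same order. For Slc39a14, whose folds were near 0, the nearest were Vhl, Msi1, Bahcc1, Clmp and Gapdhs, all within 0.01.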

How the data were processed

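Libraries came from poly-A RNA of 12 frontal cortices, per the labels' protocols. Per the submitters' processing notes, FastQC 0.65, TopHat2 2.1.0, Cufflinks 2.2.1.0 and Cuffdiff 2.2.1.3 were run, and the builds named are mm10 and GRCm38. What the authors deposited is 3 Cuffdiff tables with 1 FPKM per group and gene model, a p-value and a q-value, per the file headers. A Benjamini-Hochberg adjustment of the deposited p-values, repeated here, gave the deposited q-values to within 5.14e-07. The files call the groups WT, NR1 and NR1Cre. NR1, an older name of GluN1, was matched to the labels through the tables each sample's description names.

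Log2 folds were recomputed from the deposited FPKM with no pseudocount (pandas 2.3.3, NumPy 2.4.6), since 1 table holds spreadsheet error marks in place of some folds. A model was called where Cuffdiff tested it with p under 0.05 and q under 0.10, the threshold in the series' design text. No test of this report's own was run, and the counting steps were tested on simulated data. Starts in the tables count from 0 and are given from 1. The members and lists were chosen with earlier results of these data known. The genes named were the 8 members, called family genes and the 2 largest folds each way, called list genes, the chromosomal neighbours and the 5 nearest patterns; other genes were named after their values were seen. Alternatives were a q under 0.05, a minimum mean FPKM of 1, single-symbol models, 1 FPKM added, centred folds, models summed per gene, and folds from the other tables.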

Additional observations from a re-analysis of the deposited data

How the results depend on the processing

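No paired analysis was possible because the tables hold 1 value per group and no value per animal, so neither a fit with the replicate number nor one leaving out an animal was run. The counts of called members (3, 2 and 0 in knockdown against wild type, rescue against knockdown and rescue against wild type) and of called family models were the same at q under 0.05, at a minimum mean FPKM of 1 and over single-symbol models. Over all tested models, the counts of 464, 127 and 155 became 358, 103 and 122 at q under 0.05, and 371, 112 and 134 at a minimum mean FPKM of 1. All 24 member folds kept their sign under each of the 4 other ways to compute them, and the largest shift was 0.01 on the log2 scale, for Mt3 in knockdown against wild type when its fold was taken from the other 2 tables. Precision is limited by the missing spread between animals, and low models such as Mtf1 rest on an unknown number of fragments.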

Other observations

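Several zinc transporter genes were too low for the authors' test. Slc30a2, an exporter gene, was listed at 0.216 FPKM in knockdown against 0.0339 FPKM in wild type and at 0.138 FPKM in rescue against 0.207 FPKM in knockdown. Slc39a4, the importer of the gut, stood at 0.0245 FPKM in knockdown against 0.0390 FPKM in wild type. Slc30a8, the exporter of insulin granules, was listed at 0 FPKM in rescue and in knockdown and at 0.0185 FPKM in wild type. Slc39a8, which also carries manganese, was tested at 0.931 FPKM in rescue against 0.764 FPKM in wild type (log2 fold 0.28, p = 0.113 in the authors' deposited table) and was not called.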
